A study of Homo sapiens with 4 samples.

Results

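The 8 gene models CHGB, ST6GAL2, SULT2B1, PSKH1, AHCYL2, PTBP2, DAAM2 and lnc-IGFL3-2 differed between 2 lines of A549, an established human lung adenocarcinoma line, whether or not nutlin-3a was given. They were selected on their measured differences between LIMA1 shRNA and control shRNA cells in both treatments and are listed by name, so those differences are given as a description. All 8 were found in every file, among 42113 gene models, and all 8 were among the 12742 genes that counted as measured, those whose 4 libraries averaged 30 normalized counts or more. Their lowest value in any library was 86.8 normalized counts, so none passed this filter only through the line in which it was high.

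The study set out to see how knocking down LIMA1 alters the transcription that p53 induces. Its 4 groups, with 1 RNA-seq library each, were LIMA1 shRNA cells with nutlin-3a at 10 µM, control shRNA cells with nutlin-3a at 10 µM, LIMA1 shRNA cells without it and control shRNA cells without it. Both lines carried a stable lentiviral insertion, the controls a negative control shRNA, and RNA was taken at 24 h. Nutlin-3a releases p53 from MDM2, its ubiquitin ligase, and LIMA1 encodes EPLIN, an actin-bundling LIM-domain protein. None of the sources used here gives the hairpin sequences, the promoter that drove them, or whether a line was a clone or a pool. An effect of LIMA1 loss, another effect of the hairpin and a lasting difference between the lines therefore cannot be told apart, and with 1 library per group the spread within a group is unknown and no p-value is given.

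The products of these genes have unrelated roles. CHGB encodes chromogranin B, a granin packed into the dense-core granules of regulated secretion. ST6GAL2 adds sialic acid in alpha-2,6 linkage to galactose on glycans, SULT2B1 transfers sulfate to cholesterol and other 3-hydroxysteroids, and PSKH1 encodes a serine kinase. AHCYL2 is a relative of S-adenosylhomocysteine hydrolase and of the IP3 receptor binding protein encoded by AHCYL1. PTBP2 is the neural polypyrimidine tract binding protein, which controls alternative splicing, and DAAM2 is a formin that links Dishevelled signals to actin. The model lnc-IGFL3-2 is a long noncoding transcript whose name points to IGFL3, a gene of the IGF-like family.

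Promoter sequences are shown for a pair of genes that were lower and a pair that were higher in LIMA1 shRNA cells, so that the letters upstream of genes that differed in opposite directions can be compared. The RefSeq promoter table (GRCh38.p14; the deposited values were made on hg19) held 6 of the 8 genes, with 250 bases before and 50 after a start, and where it held several starts the 5′-most was taken, since the files do not show which start A549 cells use. The windows are chr19:48551922-48552221, chr16:67893004-67893303, chr1:96722388-96722687 and chr6:39792126-39792425, all on the plus strand and printed 5′ to 3′. Capitals mark GC boxes (GGGCGG) and CRE half-sites (TGACG) on either strand.
SULT2B1: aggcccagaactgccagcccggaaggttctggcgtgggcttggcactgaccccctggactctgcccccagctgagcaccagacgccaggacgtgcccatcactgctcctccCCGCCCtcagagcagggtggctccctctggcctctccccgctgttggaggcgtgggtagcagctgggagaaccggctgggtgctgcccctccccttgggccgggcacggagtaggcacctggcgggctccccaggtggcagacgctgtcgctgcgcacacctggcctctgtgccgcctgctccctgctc
PSKH1: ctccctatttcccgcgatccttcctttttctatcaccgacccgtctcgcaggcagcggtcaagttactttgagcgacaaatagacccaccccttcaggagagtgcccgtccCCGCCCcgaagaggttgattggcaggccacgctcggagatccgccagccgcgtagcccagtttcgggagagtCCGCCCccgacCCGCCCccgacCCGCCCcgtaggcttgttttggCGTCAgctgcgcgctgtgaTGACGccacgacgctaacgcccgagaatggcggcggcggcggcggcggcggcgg
PTBP2: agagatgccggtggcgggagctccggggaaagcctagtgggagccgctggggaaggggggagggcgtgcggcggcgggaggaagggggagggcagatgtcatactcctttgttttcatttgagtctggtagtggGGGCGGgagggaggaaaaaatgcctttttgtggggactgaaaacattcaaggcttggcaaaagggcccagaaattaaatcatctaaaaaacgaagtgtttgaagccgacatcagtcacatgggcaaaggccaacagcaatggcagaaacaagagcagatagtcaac
DAAM2: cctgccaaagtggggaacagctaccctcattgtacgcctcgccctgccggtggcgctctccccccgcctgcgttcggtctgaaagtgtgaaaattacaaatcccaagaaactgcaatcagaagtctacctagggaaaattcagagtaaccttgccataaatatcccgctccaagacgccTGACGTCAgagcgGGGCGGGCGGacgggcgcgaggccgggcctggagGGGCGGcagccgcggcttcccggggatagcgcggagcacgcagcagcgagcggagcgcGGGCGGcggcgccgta

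All 6 promoters held at least 1 GC box, against 45.0% of the 35116 promoters of that length in the table, and their GC content ran from 54.0% to 73.0% (median over all promoters 58.7%). No window held a TATA box (TATAAA; 11.5% of promoters), an E-box (CACGTG; 7.26%), an AP-1 site (TGANTCA; 7.71%) or a C/EBP-ATF element (TGATGNAA; 3.62%), searched on both strands. CRE half-sites, in 24.6% of promoters, lay in PSKH1 and DAAM2, 1 a gene that was lower and the other a gene that was higher. In DAAM2 a pair of them overlapped as the full palindrome TGACGTCA, which 1.85% of promoters held, and GC boxes overlapped there too. PSKH1 also had a CCAAT box (CCAAT; 34.6%) and a match to the p53 half-site consensus (6.63%). These matches are descriptions of the letters and not of binding.

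Values are fragment counts divided by a size factor per library, as deposited, and are called normalized counts. Differences are between log2(normalized count + 1) values, which understates the change of low genes, and a difference of at least 1 in size was called. Fold changes are ratios of the deposited values with exact 95% counting intervals, which leave out variation between cultures. Libraries held 15.2 to 16.7 M fragments. LIMA1 stood at 133 normalized counts in LIMA1 shRNA cells and 866 in control shRNA cells with nutlin-3a, and at 68.3 and 416 without it, 6.51-fold and 6.09-fold lower in the LIMA1 shRNA line. The p53 targets CDKN1A and MDM2 were higher with nutlin-3a in both lines, CDKN1A at 48106 against 1178 normalized counts in LIMA1 shRNA cells and 34078 against 1066 in control shRNA cells. In bulk RNA, fewer cells that express a gene and less of its RNA per cell cannot be told apart. All 8 epithelial markers, such as KRT8 and KRT18, passed the filter, and only EPCAM was called between the lines. It was at 31.1 in LIMA1 shRNA cells against 111 in control shRNA cells with nutlin-3a, and 82.1 against 229 without it. The 8 epithelial markers summed to 177055 against 179746 with nutlin-3a and 156853 against 149184 without it. Their median difference was 0.07 with nutlin-3a and -0.04 without it. The 8 fibroblast markers summed to 33.2 normalized counts with nutlin-3a and 77.2 without it in LIMA1 shRNA cells. In control shRNA cells they summed to 66.5 and 145. Their sum was thus lower in the LIMA1 shRNA line, as 4 of the 8 genes were, and their part in those results was not tested. Only COL1A1 of these markers was measured. Its line differences, -0.65 with nutlin-3a and -0.69 without it, were not called. The 8 blood and endothelial markers summed to 90.3 and 103 in LIMA1 shRNA cells and 121 and 111 in control shRNA cells. COL1A2, CD3E and KDR were at 0 in all 4 libraries.

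Between the lines, 4 of the 8 genes were lower and 4 higher in LIMA1 shRNA cells, in both treatments. Calls in either direction took in 3.2% of all measured genes with nutlin-3a and 3.08% in untreated cells, and 1.4% were called the same way in both (0.447% higher and 0.957% lower); the genes were listed from these contrasts, so nothing is read from their count. The differences of the 8 genes ran from -2.69 to 1.77 with nutlin-3a and from -2.65 to 1.88 in untreated cells, where the median over all measured genes was 0.03 and 0.02. Fragment counts were whole in every library for 7 of them; those of DAAM2 were not, so its intervals rest on estimated counts.

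**Figure D1:**
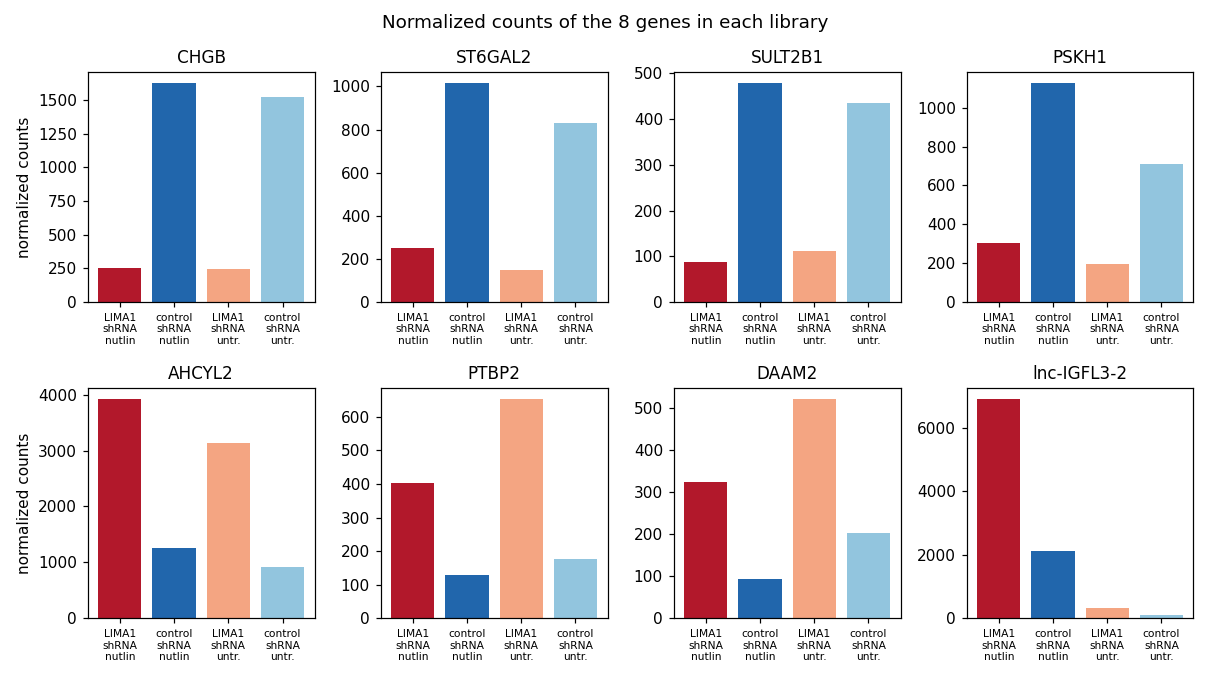
Normalized counts (vertical axes, each starting at 0) of the 8 genes in the 4 libraries, 1 bar per library and no replicates. In the upper row both LIMA1 shRNA bars are below both control shRNA bars, and in the lower row they are above, except that the untreated LIMA1 shRNA bar of lnc-IGFL3-2 (328) is below the nutlin-3a control bar (2123).

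**Figure D2:**
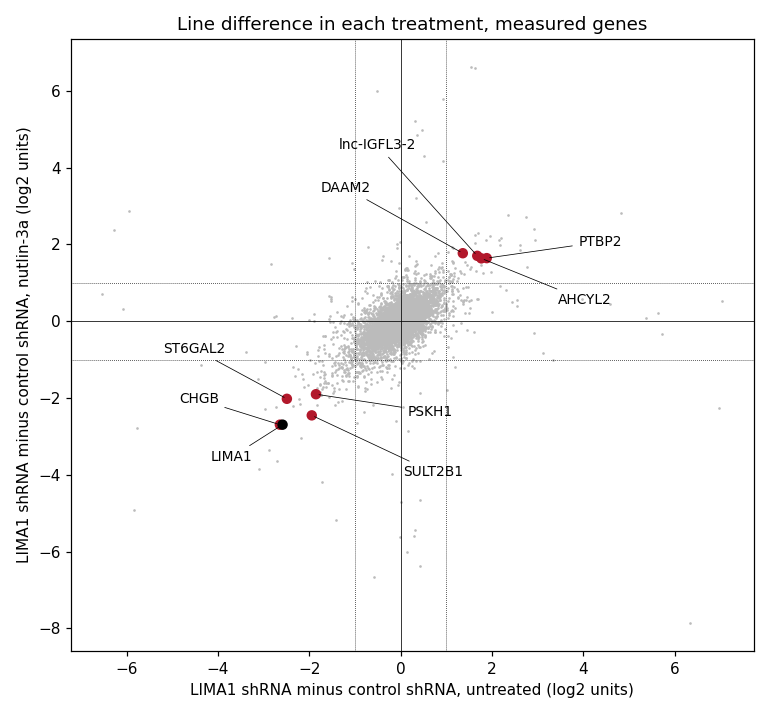
Difference between LIMA1 shRNA and control shRNA cells with nutlin-3a (vertical, log2 units) against that in untreated cells (horizontal, log2 units) for the 12742 measured genes in grey, the 8 genes in red and LIMA1 in black; dotted lines mark a difference of 1. PTBP2 lies at 1.64 (vertical) and 1.88 (horizontal), and CHGB beside LIMA1 at -2.69 and -2.65.

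CHGB had the largest difference among the 8 genes in both treatments. It stood at 251 normalized counts in LIMA1 shRNA cells and 1629 in control shRNA cells with nutlin-3a, 6.49-fold lower (5.66 to 7.48). Without nutlin-3a the values were 242 and 1524, 6.29-fold lower (5.49 to 7.22). The 2 libraries of each line were close to each other and the lines were far apart, with or without nutlin-3a. Its paralog CHGA was low, at 15.0 and 17.9 normalized counts with nutlin-3a and 13.9 and 16.0 without it.

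In the list of granins and genes of regulated secretion, 15 genes besides CHGB were measured. With nutlin-3a 3 of them were lower (1.94% of all measured genes were) and 0 higher, and in untreated cells 2 were lower (background 2.05%) and 0 higher. The 3 with nutlin-3a, VGF, SYT7 and PTPRN2, each averaged under 150 normalized counts. Among genes averaging 150 or more, 0 of the list besides CHGB were lower with nutlin-3a and 1 in untreated cells. Of all 10005 such genes, 78 and 68 were lower. PTPRN2, a granule membrane phosphatase family gene, was lower in both, at 21.4 against 84.4 normalized counts with nutlin-3a and 4.95 against 18.9 without it, where a pseudocount of 10 gave a difference of -0.95, under the size for a call. VGF (-2.23) and the calcium sensor SYT7 (-2.18) were lower with nutlin-3a, where they stood at 5.36 normalized counts each in LIMA1 shRNA cells against 28.8 and 27.8 in control shRNA cells; with a pseudocount of 10 the differences were -1.34 and -1.30. The peptide-processing enzyme CPE was at 107 against 265 in untreated cells, a difference of -1.30, but at 694 against 686 with nutlin-3a. The median over the 15 genes was -0.19 with nutlin-3a and -0.18 without it, against 0.03 and 0.02 over all genes. Of 8 neuroendocrine markers 4 were measured, and INSM1 and NEUROD1 were at 0 in all 4 libraries. The summed level of the 8 markers was 10396 with LIMA1 shRNA and 9523 with control shRNA under nutlin-3a, and 10578 and 9143 without it; UCHL1 made up most of it, and it was higher in the line in which CHGB was lower. SYP, a synaptic vesicle marker of that list, was lower there, at 61.1 against 177 with nutlin-3a and 99.0 against 156 without it; the part of these markers in the CHGB result was not tested.

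ST6GAL2 stood at 250 normalized counts in LIMA1 shRNA cells against 1016 in control shRNA cells with nutlin-3a, 4.07-fold lower (3.53 to 4.71). In untreated cells it was at 146 against 829, 5.66-fold lower (4.75 to 6.79). Both LIMA1 shRNA libraries were below both control shRNA libraries. The other enzyme of its linkage, ST6GAL1, was at 462 against 620 with nutlin-3a and 391 against 517 without it, differences of -0.42 and -0.40 that were not called. Of 18 other measured genes for sialic acid transfer and supply, only ST3GAL1 was called in these 2 contrasts (backgrounds 3.2% and 3.08%), and it was higher. ST3GAL1, which adds alpha-2,3-linked sialic acid to O-glycans, stood at 1721 against 719 normalized counts with nutlin-3a and 2460 against 986 in untreated cells, differences of 1.26 and 1.32. The median of the 18 genes was 0.02 and -0.01.

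SULT2B1 stood at 86.8 normalized counts in LIMA1 shRNA cells and 479 in control shRNA cells with nutlin-3a, 5.52-fold lower (4.36 to 7.08). In untreated cells the values were 112 and 435, 3.89-fold lower (3.16 to 4.82). It was the only SULT2 gene with fragments, SULT2A1 being listed at 0 in all 4 libraries. SULT1A1, which sulfates phenols, was at 152 against 134 with nutlin-3a and 82.1 against 66.0 without it. Of the 4 other measured genes of sulfate transfer and supply, PAPSS2, which makes the sulfate donor, was the 1 called, in untreated cells at 658 against 1353 normalized counts (-1.04; 2.05% of all measured genes were called lower there); with nutlin-3a it was at 992 against 1641 (-0.73). PAPSS1 did not reach a difference of 1, at 0.07 and -0.12. The median of the 4 genes was 0.13 with nutlin-3a and -0.03 without it.

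PSKH1 stood at 301 normalized counts in LIMA1 shRNA cells and 1128 in control shRNA cells with nutlin-3a, 3.74-fold lower (3.28 to 4.28), and at 195 and 709 in untreated cells, 3.64-fold lower (3.10 to 4.28). Both LIMA1 shRNA libraries lay below both control shRNA libraries. PSKH2, its only close relative, was listed at 0 in all 4 libraries. Of 13 other measured genes in the list of PSKH and calcium/calmodulin-dependent kinases, 0 were called in either treatment, where 3.2% and 3.08% of all measured genes were, and their medians were 0.10 and 0.02. Their differences ran from -0.41 to 0.43 with nutlin-3a and from -0.62 to 0.76 without it.

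AHCYL2 stood at 3921 normalized counts in LIMA1 shRNA cells and 1261 in control shRNA cells with nutlin-3a, 3.11-fold higher (2.92 to 3.32). In untreated cells the values were 3139 and 923, 3.40-fold higher (3.17 to 3.66). The hydrolase gene AHCY was at 8442 against 8575 with nutlin-3a and 7906 against 7335 without it, and AHCYL1 at 2785 against 2837 and 3237 against 2991, so neither relative was near a call. Among the 17 other measured genes of the methionine cycle and IP3 receptor list, 1 was higher (backgrounds 1.26% with nutlin-3a and 1.04% without) and 1 lower (1.94% and 2.05%) in each treatment. In both treatments these were the transsulfuration enzyme genes CBS and CTH. CBS, which makes cystathionine from homocysteine, was higher by 1.02 with nutlin-3a and 1.12 without it. The call with nutlin-3a was lost with a pseudocount of 10 (0.97), upper-quartile scaling (0.98) and equal totals (0.97). CTH, which cleaves cystathionine, was at -1.61 and -1.39. The bicarbonate cotransporter gene SLC4A4 was at 0.87 and 0.74, and the medians of the 17 genes were 0.14 and 0.12. The 3 IP3 receptor genes lay between -0.14 and 0.31 with nutlin-3a and between -0.39 and 0.28 without it.

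PTBP2 stood at 402 normalized counts in LIMA1 shRNA cells and 128 in control shRNA cells with nutlin-3a, 3.14-fold higher (2.56 to 3.87), and at 653 and 176 in untreated cells, 3.71-fold higher (3.15 to 4.38). PTBP1, the widely expressed paralog that is known to repress PTBP2 through exon skipping, was lower in LIMA1 shRNA cells in both treatments without reaching a call. It was at 2873 against 4103 normalized counts with nutlin-3a (-0.51) and 4905 against 6785 without it (-0.47). Within each line, PTBP1 and PTBP2 were both lower with nutlin-3a than without it. The part of PTBP1 in the PTBP2 result was not tested. PTBP3 was at 0.45 in each treatment. Of 18 other measured splicing regulators in the list, 0 were called in either treatment (3.2% and 3.08% of all measured genes were), and their medians were 0.09 and 0.09. CELF2 was at -0.02 with nutlin-3a and -0.81 without it, where it had only 4.95 and 9.43 normalized counts.

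DAAM2 stood at 324 normalized counts in LIMA1 shRNA cells and 94.3 in control shRNA cells with nutlin-3a, 3.44-fold higher (2.73 to 4.38), and at 520 and 202 in untreated cells, 2.57-fold higher (2.20 to 3.04). Its untreated difference, 1.36, was the smallest among the 8 genes. The paralog DAAM1 was at 229 against 180 normalized counts with nutlin-3a and 195 against 152 without it, differences of 0.35 and 0.36. Among 32 other measured formin and planar polarity genes, 1 was higher with nutlin-3a (background 1.26%) and 2 were lower in untreated cells (2.05%). The higher gene was the formin FMNL3 (1.01), at 22.9 against 10.8 normalized counts with shared reads; its difference was under 1 with a pseudocount of 10 (0.66) and under each of the 3 other scalings. The lower genes were the formin FMN2 (-1.16, with shared reads) and the receptor PTK7 (-1.35). The median of the 32 genes was 0.09 in each treatment. The Dishevelled genes were not called, DVL1 standing at 0.18, DVL2 at 0.11 and DVL3 at 0.18 in untreated cells.

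lnc-IGFL3-2 differed between the lines and, far more, between the treatments. It stood at 6914 normalized counts in LIMA1 shRNA cells and 2123 in control shRNA cells with nutlin-3a, 3.26-fold higher (3.10 to 3.42), and at 328 and 102 in untreated cells, 3.22-fold higher (2.58 to 4.04). Within each line the nutlin-3a library was the higher. Other noncoding models named for IGFL genes were lower in count and were highest in the LIMA1 shRNA nutlin-3a library. lnc-IGFL3-1 was at 72.9 against 19.9 normalized counts with nutlin-3a and 7.92 against 1.89 without it. lnc-IGFL1-1 was at 79.3 against 26.8 and 26.7 against 9.42, differences of 1.53 and 1.41. lnc-IGFL4-1 was at 24.7 against 20.8 and 14.8 against 8.48, differences of 0.23 and 0.74, and lnc-IGFL2-1 was at 8.58 against 3.97 with nutlin-3a and listed at 0 in both untreated libraries. The protein-coding IGFL genes were low or at 0: IGFL2 had 57.9 against 32.8 normalized counts with nutlin-3a and 1.98 against 5.66 without it, and IGFL3 had 7.50 against 2.98 with nutlin-3a and was listed at 0 in both untreated libraries. None of the noncoding models named for ST6GAL2, PTBP2 or DAAM2 was measured, and each was listed at or under 1 normalized count in every library. Whether the IGFL models share reads or transcripts was not tested.

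**Figure D3:**
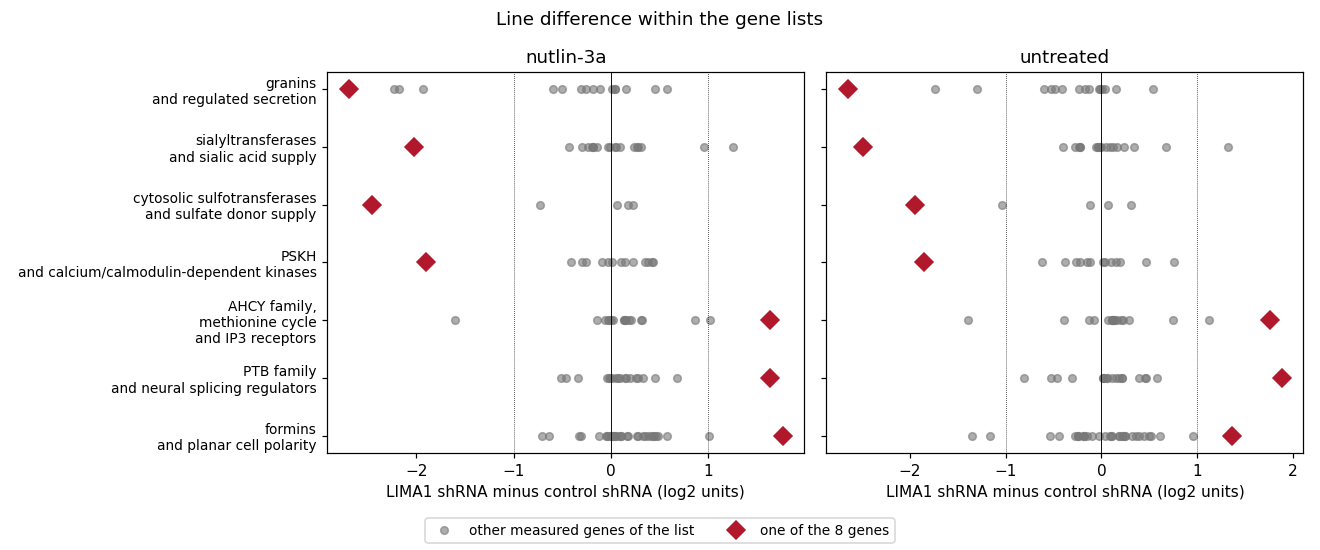
Difference between LIMA1 shRNA and control shRNA cells (horizontal, log2 units; left panel nutlin-3a, right panel untreated) for the measured genes of 7 gene lists, with the listed gene of each as a red diamond and the other members as grey points. The red diamonds were chosen on these differences; among the grey points ST3GAL1 lies at 1.26 and CTH at -1.61 with nutlin-3a.

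With nutlin-3a, lnc-IGFL3-2 was far higher in both lines, and the other 7 genes differed by about 1 or less. By nutlin-3a against untreated, 1 of the 8 was called in LIMA1 shRNA cells, against 13.4% of all measured genes (7.29% higher and 6.08% lower). In control shRNA cells 2 of the 8 were called, against 11.2% (5.54% higher and 5.64% lower). Only lnc-IGFL3-2 of the 8 was called the same way in both lines, where 9.28% of all measured genes were. lnc-IGFL3-2 was 21.1-fold higher with nutlin-3a in LIMA1 shRNA cells (18.9 to 23.6) and 20.9-fold higher in control shRNA cells (17.2 to 25.5). DAAM2 was the other call, 2.14-fold lower in control shRNA cells (1.67 to 2.75) and 1.60-fold lower in LIMA1 shRNA cells (1.39 to 1.85), the second under the size for a call. PTBP2 was also lower with nutlin-3a, with differences of -0.70 in the LIMA1 shRNA line and -0.46 in the control line. PSKH1 was higher by 0.63 and 0.67, ST6GAL2 by 0.77 and 0.29 and AHCYL2 by 0.32 and 0.45. CHGB was at 0.05 and 0.10, and the counting intervals of both its ratios included equal levels. SULT2B1 was at -0.36 in LIMA1 shRNA cells, with an interval of its log2 ratio from -0.79 to 0.06, and at 0.14 in control shRNA cells (-0.05 to 0.33). By sign, 7 of the 8 had nutlin-3a differences in the same direction in both lines, SULT2B1 being the exception.

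**Figure D4:**
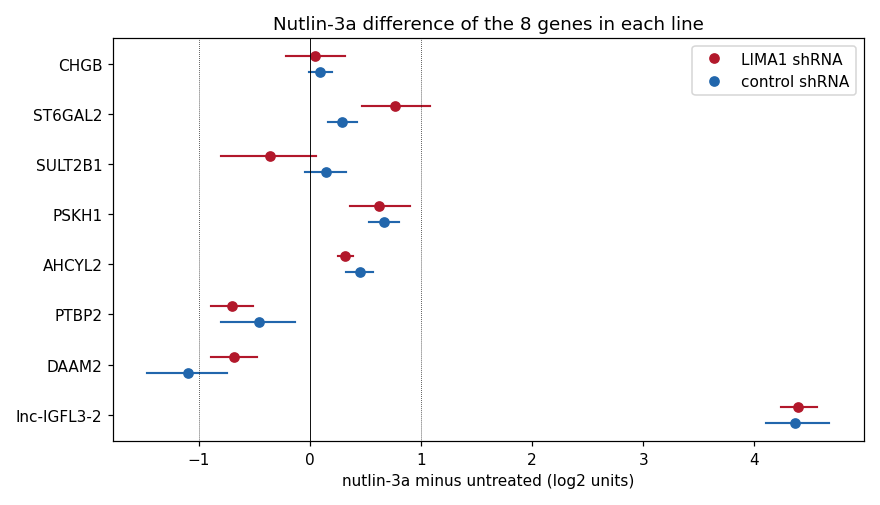
Nutlin-3a minus untreated difference (horizontal, log2 units) of the 8 genes in LIMA1 shRNA cells (red, upper point) and control shRNA cells (blue, lower point). Bars are exact 95% counting intervals of the log2 ratio and do not cover variation between cultures. lnc-IGFL3-2 lies at 4.40 and 4.37 and the other genes between -1.09 and 0.77.

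A response difference, the nutlin-3a difference of the LIMA1 shRNA line less that of the control line, was called for 0 of the 8 genes, against 2.09% of all measured genes (1.27% higher and 0.816% lower). It is also the gap between the line differences on which the genes were selected, so nothing is read from that count. It ran from -0.50 at SULT2B1 to 0.47 at ST6GAL2, with counting standard errors of 0.23 and 0.17. DAAM2 was at 0.41 (counting standard error 0.21), PTBP2 at -0.24 (0.19) and AHCYL2 at -0.13 (0.07). CHGB (-0.05), PSKH1 (-0.04) and lnc-IGFL3-2 (0.03) were nearest to 0. For lnc-IGFL3-2 the line differences were 1.70 with nutlin-3a and 1.68 without it.

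Of the genes most like each of the 8 in pattern, some were others of the 8. All 8 were selected on differences between the same library values, so nothing is read from that. Likeness was the Euclidean distance between the 4 log2 values centred on each gene's mean, among 10005 genes averaging 150 normalized counts or more. Near to CHGB was SULT2B1 (0.55), and the nearest to ST6GAL2 were PSKH1 (0.47) and HSPA2 (0.55). Near to SULT2B1 was the retinol carrier RBP4 (0.47). PSKH1 was nearest to the organic anion transporter SLCO2B1 (0.36) and the brush-border myosin MYO1A (0.39). AHCYL2 was nearest to the tetraspanin TSPAN8 (0.50) and TANC2 (0.65), PTBP2 to the dynamin DNM3 (0.45) and DAAM2 (0.49), and DAAM2 to lnc-AL137145.1-6 (0.38, with shared reads) and OLFML3 (0.45). The nearest to lnc-IGFL3-2 were the lipoxygenase ALOX5 (0.56), at 854 against 342 normalized counts with nutlin-3a and 41.6 against 19.8 without it, and NUPR1 (0.85). With 4 libraries these distances describe a shape and nothing more.

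Of 10005 genes averaging 150 normalized counts or more, 17 had a difference of at least 1.5 in the same direction in both treatments. They were 5 higher and 12 lower in LIMA1 shRNA cells. Of the 8 genes 7 were among them, DAAM2 lying outside at 1.36 in untreated cells. The 8 were selected on these same contrasts, so nothing is read from that count. Among the other 10 were CD70 and TNFSF9, both higher, and LIMA1, RBP4, HSPA2, DCDC2, SLCO2B1, DCDC5 and DNER, all lower. The TNF family ligand genes CD70 (2.39 with nutlin-3a and 2.92 without) and TNFSF9 (1.98 and 2.17) exceeded the 4 higher genes described here in both treatments. The neuronal Notch ligand gene DNER was at 86.8 against 267 normalized counts with nutlin-3a and 81.1 against 255 without it.

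Among the genes on either side, STRIP2 was the one called between the lines. Gene order was taken from RefSeq, which matched 93.9% of measured genes, for the 7 genes it lists. Of their 42 measured neighbours, 3 on each side, 1 was called with nutlin-3a and 0 in untreated cells, against 3.2% and 3.08% of all measured genes. The call was STRIP2, next to AHCYL2, at 579 against 247 normalized counts with nutlin-3a (1.22) and 305 against 195 without it (0.64), higher in LIMA1 shRNA cells as AHCYL2 was. On the other side of AHCYL2, SMO was at -0.18 and -0.48 and TSPAN33 at -0.57 and -0.84. The median of the 42 neighbours was -0.01 with nutlin-3a and 0.09 in untreated cells. EDC4 and PSMB10, which flank PSKH1, were at 0.22 and 0.01 with nutlin-3a and at 0.27 and 0.19 without it. TRMT6, beside CHGB, was at -0.13 with nutlin-3a and 0.11 without it. Over the 7 chromosomes that carry these genes, the medians of all measured genes lay between -0.01 and 0.03 in both treatments.

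**Figure D5:**
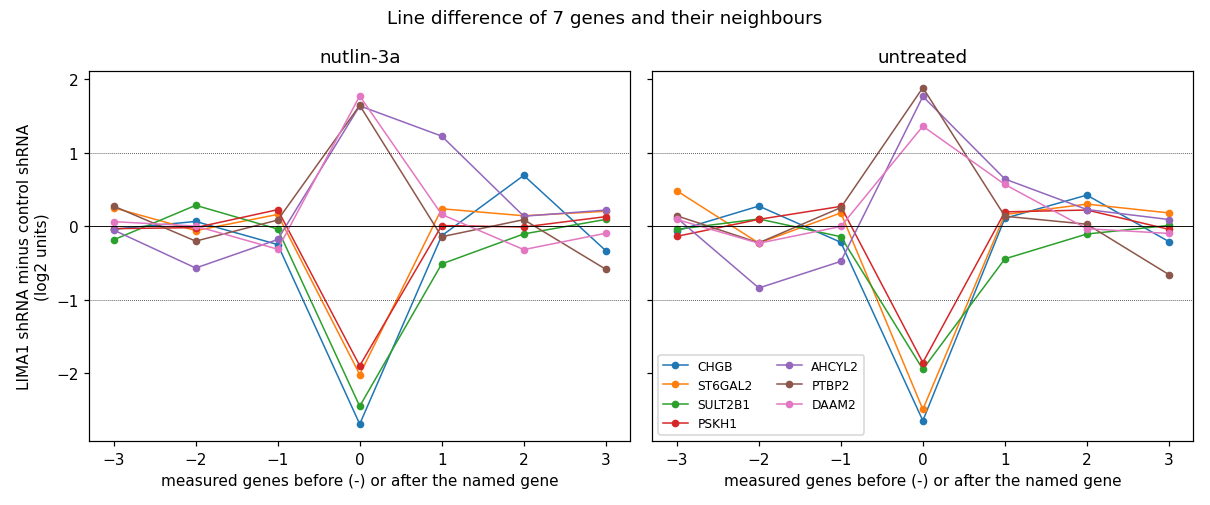
Difference between LIMA1 shRNA and control shRNA cells (vertical, log2 units; left panel nutlin-3a, right panel untreated) for 7 genes at position 0 and the 3 nearest measured genes before and after each in RefSeq order (horizontal). Of the 42 neighbours, STRIP2 next to AHCYL2 (1.22 with nutlin-3a) is the one that passes the dotted line at 1.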

How the data were processed

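RNA-seq values of 4 A549 libraries were read from the deposited tables, 1 per library. Sample titles gave the groups; they say si for what the protocols call shRNA. Per the submitters' processing notes, Cuffnorm 2.2.1, Bowtie2 2.0.12, bcl2fastq 1.8.3 and build hg19 were used, in roles not stated, and no source used here names an annotation. The deposited signal of a gene is a fragment count scaled by a library size factor and not by gene length, as read from its values: 85.5% to 86.3% of those from 0.5 to 1000 fragments were within 0.1 of a whole multiple of the library's step (0.943 to 1.07). This is not nearly all, and with 1 library per group no count test was run. Of 9718 checkable measured genes, 1791 (18.4%) had values that were not whole and are said to have shared reads.

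Log2 differences used a pseudocount of 1 and genes averaging at least 30 normalized counts. Ratios have Clopper-Pearson 95% intervals of fragments, for counting error alone, as no molecular identifiers are recorded. The calling step was tested on simulated counts that held counting noise alone, so that test does not cover variation between cultures. The 8 genes and all lists were chosen with earlier results of these data known. Named genes are the 8, LIMA1, CDKN1A, MDM2, paralogs, list genes called between the lines, noncoding models named for the genes, the 2 nearest patterns per gene, genes at 1.5 in both line contrasts and called neighbours. Others, such as SULT1A1, SLC4A4, EDC4, the DVL genes and those of the closing section, were named after their values were seen. Of the genes this rule names, 1 is not reported here. Alternatives were pseudocounts of 10 and 0.5, 3 scalings, a mean of at least 150 and no filter. Python 3.11.15, numpy 2.4.6, pandas 2.3.3, scipy 1.17.1 and matplotlib 3.10.9 were used.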

Additional observations from a re-analysis of the deposited data

Results flagged for a closer look

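SULT2B1 had nutlin-3a differences of opposite sign in the lines, -0.36 with LIMA1 shRNA and 0.14 with control shRNA. They differ by -0.50, with a counting standard error of 0.23. The counting interval of each separate ratio includes equal levels. The hydrolase gene AHCY and its relative AHCYL1 had differences between the lines of opposite sign in the 2 treatments, -0.02 with nutlin-3a against 0.11 in untreated cells for AHCY and -0.03 against 0.11 for AHCYL1, which differ by -0.13 and -0.14. With 1 library per group none of these 3 differences was tested.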

How the results depend on the processing

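All 8 genes stayed at or past a difference of 1, with the same sign, in both contrasts between the lines under each of the 5 pseudocount and scaling alternatives (the other 2 change only which genes enter); the value nearest to 1 was 1.30 for DAAM2 in untreated cells after upper-quartile scaling. The 1, 2 and 0 genes called by nutlin-3a in LIMA1 shRNA cells, by nutlin-3a in control shRNA cells and by the difference of those responses also stayed 1, 2 and 0. Under those 5 alternatives 199 differences of the 8 genes lay within their counting intervals and 1 did not: AHCYL2 by nutlin-3a in LIMA1 shRNA cells was at 0.40 after upper-quartile scaling. Of 16 calls of list genes and neighbours between the lines, 13 held under those 5 alternatives; the calls of CBS and FMNL3 with nutlin-3a and of PTPRN2 in untreated cells did not. Of the list medians in the 5 contrasts, 262 moved by less than 0.1 and 13 by more, all but 2 of these through a filter. The PSKH list with nutlin-3a, at 0.10, was at -0.0049 with means of at least 150. Counts over all genes depended on low genes. With means of at least 150, calls numbered 137 between the lines with nutlin-3a, 110 without it, 1055 and 882 by nutlin-3a in LIMA1 shRNA and control shRNA cells, and 58 in the response difference; with no filter they numbered 4136, 2982, 6104, 4545 and 4929. These filters change which genes enter. With a pseudocount of 10 the response difference had 147 calls, where a pseudocount of 1 gave 266; the cause was not tested. No paired analysis was possible because the labels give the groups fewer than 2 shared replicate numbers. Depth limits what the low genes, such as CHGA and IGFL3, can show.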

Other observations

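Some list genes were called by nutlin-3a in both lines and not called between the lines. The formin DIAPH3 was at 20.4 against 817 normalized counts (nutlin-3a against untreated) in LIMA1 shRNA cells and 25.8 against 655 in control shRNA cells. The IGFL receptor gene IGFLR1 was at 24.7 against 158 and 19.9 against 179. The polarity gene VANGL2 was at 170.4 against 38.6 in LIMA1 shRNA cells and 140.0 against 41.5 in control shRNA cells. CELF2, a splicing regulator, was at 67.5 against 4.95 and 68.5 against 9.43. Unlike these, VGF and CPE of the granin list were called between the lines, VGF with nutlin-3a and CPE in untreated cells. VGF was at 5.36 against 48.5 in LIMA1 shRNA cells and 28.8 against 47.1 in control shRNA cells, a response difference of -2.27. Its nutlin-3a difference was called in LIMA1 shRNA cells alone. The processing enzyme gene CPE was at 694 against 107 and 686 against 265, a response difference of 1.32.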
